A study of Mus musculus with 6 samples.

Results

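Cathepsins are the proteases of the lysosome, and 10 cathepsin genes (Ctsa, Ctsb, Ctsc, Ctsd, Ctsh, Ctsk, Ctsl, Ctso, Ctss and Ctsz) were taken by symbol from the annotation of the arrays. Of these, 9 had a probe set that names a single gene, out of 30710 such genes in all. The probe set listed for Ctsd, the aspartic protease of the family, also lists its neighbour Ifitm10, so Ctsd was not analysed here. Each of the 9 genes had 1 single-gene probe set. The samples were bone marrow stromal cells (BMSCs) from femurs of aged mice of 18 months (3 arrays) and young mice of 3 months (3 arrays), with age the only labelled factor. Cells of both ages had been freed with collagenase A, sorted as positive for Sca-1 and CD29 and negative for CD45 and CD11b, and expanded in culture beyond the first passage before RNA was taken. Strain and sex are not given in the sources used here, and while the arrays are labelled as biological replicates, no label ties an array to its own animal. The p-values therefore cover only array-to-array spread, which may be partly technical.

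Cathepsins are made as inactive precursors, tagged with mannose 6-phosphate in the Golgi apparatus, carried to the lysosome and activated there at low pH. Most are papain-like cysteine proteases that cut inside proteins or trim their ends, and cystatins hold them in check. In bone, cathepsin K is best known from osteoclasts, which secrete it to dissolve type I collagen, and stromal cells and fibroblasts use cathepsins to break down matrix they take up as well as matrix around them. Several lysosomal genes carry a CACGTG element (an E-box) near their start, the core of the element read by the transcription factors TFEB, TFE3 and MITF.

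Some cathepsin genes were higher in aged cells and others did not pass the test. The genes of the collagen-cleaving cathepsin K, of the exopeptidases cathepsin H and cathepsin Z, of cathepsin O and of cathepsin B were higher in aged cells, by 0.37 to 0.97 on the log2 scale. Both means of Ctso and the young mean of Ctsh lay below 7.61, as do 95% of negative control probe sets. For Ctso and Ctsh the size as a ratio of RNA is therefore not known. The genes of cathepsin A, cathepsin C and cathepsin L differed by 0.06 or less in size and did not pass the test. None was lower in aged cells by the test. In counts, 5 of the 8 tested cathepsin genes were higher and 0 were lower (limma over all genes, Benjamini-Hochberg adjusted p under 0.05). Of all 20194 tested genes 40.6% were called in either direction, 18.4% as higher and 22.1% as lower. The median difference of the 8 genes was 0.44, beside 0.01 for all tested genes. The remaining gene, Ctss, was too dim to enter the test.

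Annotated promoters are shown for 6 of the genes, because they set genes that rose (Ctsk, Ctso, Ctsz) beside genes that did not pass (Ctsa, Ctsl) and beside the neighbour of Ctsk, Ctss. The windows of Ctsc, which did not pass, and of Ctsd are not shown, nor is the first window of Ctsa. Each is the 250 bases before an annotated start, 5′ to 3′, from RefSeq on build GRCm38.p6. Capitals mark matches on either strand to the E-box CACGTG, to the core of the interferon-stimulated response element, to TGANTCA (bound by AP-1) or to GGGCGG (the GC box). The Ctsk window is chr3:95498960-95499209 on the plus strand, the Ctso window chr3:81932351-81932600 on the plus strand, and the Ctsz window chr2:174439040-174439289 on the minus strand. The Ctsa window shown, the second of 2 in the table, is chr2:164833523-164833772 on the plus strand, the Ctsl window chr13:64370521-64370770 on the minus strand, and the Ctss window chr3:95526536-95526785 on the plus strand.
Ctsk: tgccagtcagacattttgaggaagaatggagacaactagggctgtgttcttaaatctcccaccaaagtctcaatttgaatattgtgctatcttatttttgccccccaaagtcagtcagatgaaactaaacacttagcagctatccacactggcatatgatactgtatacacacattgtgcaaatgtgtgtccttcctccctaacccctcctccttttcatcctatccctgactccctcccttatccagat
Ctso: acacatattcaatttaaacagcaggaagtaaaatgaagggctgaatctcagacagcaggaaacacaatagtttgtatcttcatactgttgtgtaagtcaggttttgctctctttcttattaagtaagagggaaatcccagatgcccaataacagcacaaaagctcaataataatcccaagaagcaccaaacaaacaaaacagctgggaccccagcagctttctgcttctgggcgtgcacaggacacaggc
Ctsz: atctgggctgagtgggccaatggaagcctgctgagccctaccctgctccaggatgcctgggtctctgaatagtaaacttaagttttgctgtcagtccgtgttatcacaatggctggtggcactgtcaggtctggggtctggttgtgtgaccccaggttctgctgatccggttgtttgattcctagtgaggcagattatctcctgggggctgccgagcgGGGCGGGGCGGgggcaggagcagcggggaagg
Ctsa: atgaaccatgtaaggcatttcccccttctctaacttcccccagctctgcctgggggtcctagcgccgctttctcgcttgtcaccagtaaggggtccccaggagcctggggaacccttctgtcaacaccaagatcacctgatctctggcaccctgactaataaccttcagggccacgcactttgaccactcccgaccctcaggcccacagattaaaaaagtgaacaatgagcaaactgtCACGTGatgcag
Ctsl: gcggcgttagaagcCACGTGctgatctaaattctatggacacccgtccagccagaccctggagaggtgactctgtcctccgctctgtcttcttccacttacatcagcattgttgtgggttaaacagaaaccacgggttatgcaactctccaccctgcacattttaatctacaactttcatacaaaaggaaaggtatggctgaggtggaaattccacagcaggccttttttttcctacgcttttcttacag
Ctss: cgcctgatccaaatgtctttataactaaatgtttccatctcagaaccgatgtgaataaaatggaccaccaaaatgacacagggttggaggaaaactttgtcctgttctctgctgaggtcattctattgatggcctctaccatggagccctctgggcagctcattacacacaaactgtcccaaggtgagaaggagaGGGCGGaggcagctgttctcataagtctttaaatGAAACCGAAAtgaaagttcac

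Promoters were listed for 8 of the 10 genes, in 9 windows. No window was listed for Ctsb or Ctsh, both of which rose. The E-box was found for 3 genes, Ctsd, Ctsl and Ctsa, the last in only the second of its 2 windows. It was found for 2 of the 3 genes with a promoter that did not pass, and not for Ctsc. Of the 3 genes with a promoter that rose 0 held it, while 6.02% of all 32851 RefSeq promoter windows of the same length did. So few genes cannot show whether the E-box goes with the calls. The interferon element core was found in Ctss alone, 21 bases before its start, against 2.98% of all windows. TGANTCA was found in 0 of the 8 genes, against 6.75% of all windows. GGGCGG was found for 4 genes, Ctsc, Ctsd, Ctss and Ctsz, against 32.7% of all windows, and its 2 matches in Ctsz overlap by a single base. A match is a run of letters and not evidence of binding, and a window without one says nothing of the factor.

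Ctsk encodes cathepsin K, the strongest collagenase among the cysteine cathepsins. It had log2 values of 10.05, 10.02 and 10.05 on the aged arrays, against 9.19, 9.07 and 8.94 on the young arrays. Every aged array lay above every young array, and the young arrays were spread more widely. The means were 10.04 ± 0.02 in aged and 9.07 ± 0.13 in young cells (SD, n = 3 each), a difference of 0.97 with a 95% interval of 0.84 to 1.11, or 1.97-fold (limma, adjusted p = 2.66e-06). Of all tested genes, 2.12% had a larger difference in that direction.

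**Figure D1:**
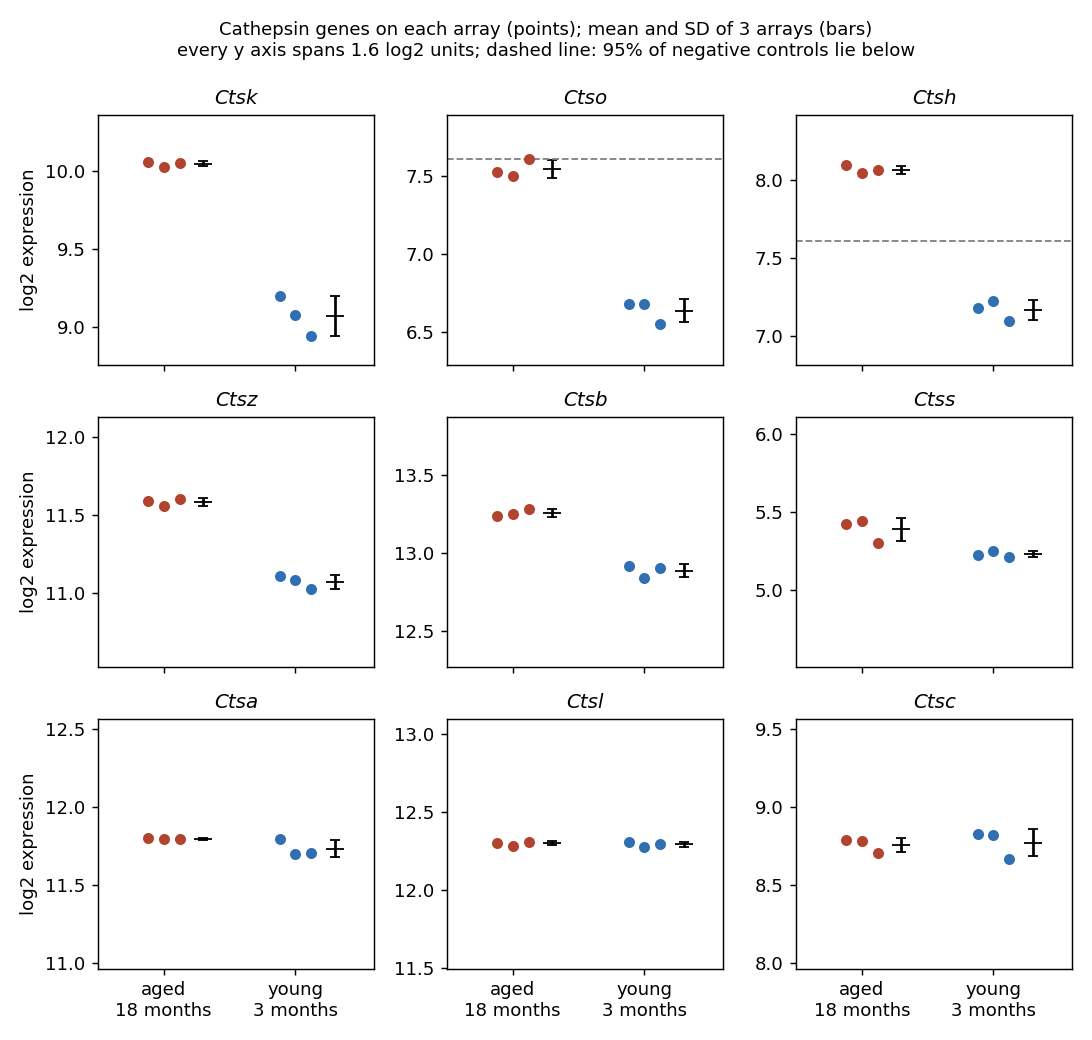
Log2 expression (y axis) of the 9 measured cathepsin genes on each aged and young array, 1 point per array, with the mean and SD of 3 arrays beside the points. The aged points of Ctsk, Ctso, Ctsh, Ctsz, Ctsb and Ctss lie above all young points, those of Ctsa, Ctsl and Ctsc do not, and the dashed line at 7.61 marks the value below which 95% of negative control probe sets lie.

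Ctsb encodes cathepsin B, an abundant endopeptidase that can also remove pairs of residues from a protein's end. Its log2 values were 13.24, 13.25 and 13.29 on the aged arrays, against 12.92, 12.84 and 12.91 on the young arrays. The groups did not overlap. The difference was 0.37, with an interval of 0.30 to 0.44, or 1.29-fold (limma, adjusted p = 1.76e-05). A test against a difference of 0.3 rather than 0 was not passed by Ctsb (limma, adjusted p = 0.20), and was passed by Ctsh, Ctsk, Ctso and Ctsz (adjusted p from 1.51e-05 to 0.00107), where 9.83% of all tested genes were called at that bound and 5.79% were called higher. The 23 antigenomic control probe sets are not built to match the mouse genome. They shifted by 0.01 to 0.29 in the same direction, with a median of 0.11. The 5222 negative control probe sets shifted by -0.26 in the median. Single sets among them shifted by -2.36 to 1.86, a wider range than that of the cathepsin differences. The part of such shifts in the cathepsin differences was not tested.

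Ctsl encodes cathepsin L, a broad endopeptidase of the lysosome. Its values were 12.30, 12.28 and 12.31 on the aged arrays and 12.31, 12.28 and 12.30 on the young arrays, and they overlapped almost fully. With the deposited scaling the difference was 0.01, with an interval of -0.05 to 0.06 (limma, adjusted p = 0.89), a narrow range around 0. After quantile normalization it was 0.07, outside that interval, and did not pass (limma, adjusted p = 0.083).

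Ctss encodes cathepsin S, an endopeptidase that stays active at neutral pH and trims the invariant chain of class II molecules in antigen-presenting cells. It read 5.42, 5.44 and 5.30 on the aged arrays, against 5.23, 5.25 and 5.21 on the young arrays. The groups did not overlap, at 5.39 ± 0.08 in aged and 5.23 ± 0.02 in young cells (SD, n = 3 each), but both means lay within the range of the negative controls, 95% of which read below 7.61. Its mean fell below the filter of the test, and in a fit with no filter its difference of 0.16 did not pass (limma, adjusted p = 0.10). Ctss is the next protein-coding gene after Ctsk in the RefSeq table, on chromosome 3. Of 8 listed class II genes 7 were measured, and Cd74, the gene of the invariant chain, was not. Of the 7, 6 were tested, with a median difference of 0.10. Of these 1 was higher (H2-DMb1, at 6.66 ± 0.04 in aged and 6.27 ± 0.10 in young cells) and 0 were lower, beside 18.4% and 22.1% of all tested genes. All 7 lay within the negative control range at both ages.

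**Figure D2:**
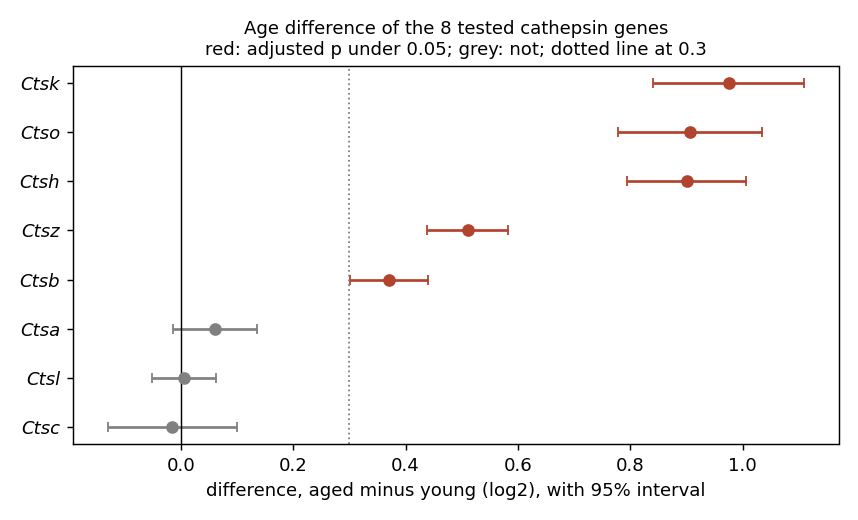
Difference in log2 expression, aged minus young (x axis), of the 8 tested cathepsin genes, with 95% intervals from the limma fit. Red points (Ctsk, Ctso, Ctsh, Ctsz and Ctsb) passed at an adjusted p under 0.05 and grey points (Ctsa, Ctsl and Ctsc) did not.

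Among the exopeptidases, which trim protein ends, Ctsh and Ctsz were higher in aged cells. Ctsh encodes cathepsin H, an aminopeptidase, and read 8.09, 8.04 and 8.06 on the aged arrays, against 7.17, 7.22 and 7.10 on the young arrays. The groups were well apart, with a difference of 0.90 and an interval of 0.79 to 1.01 (limma, adjusted p = 1.06e-06). Its young mean of 7.16 fell among the negative controls and its aged mean of 8.06 above them, and a fold was not computed. Ctsz encodes cathepsin Z, also called cathepsin X, a carboxypeptidase. It read 11.59, 11.56 and 11.60 on the aged arrays, against 11.11, 11.08 and 11.02 on the young arrays. The aged arrays were all higher, by 0.51 in the mean with an interval of 0.44 to 0.58, or 1.42-fold (limma, adjusted p = 3.04e-06). Of all tested genes, 5.22% had a larger difference in that direction than Ctsz.

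The other exopeptidase genes did not pass. Ctsa encodes cathepsin A, a serine carboxypeptidase that also shields the lysosomal sialidase and beta-galactosidase from breakdown. It read 11.80, 11.79 and 11.79 on the aged arrays and 11.79, 11.70 and 11.70 on the young arrays, and the groups overlapped through a single young array. The difference was 0.06, with an interval of -0.01 to 0.14 (limma, adjusted p = 0.18). Without that array, young replicate 1, the difference was 0.093 and passed (limma, adjusted p = 0.0128), and it also passed after quantile normalization, at 0.13.

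Ctsc encodes cathepsin C, a dipeptidyl peptidase that activates the serine proteases of leukocyte granules. It read 8.79, 8.78 and 8.71 on the aged arrays and 8.83, 8.82 and 8.67 on the young arrays, with the aged values inside the young range. The difference was -0.02, with an interval of -0.13 to 0.10 (limma, adjusted p = 0.84). The genes listed here as granule proteases that cathepsin C activates, which include the peroxidase gene Mpo, were dim throughout. All 10 measured lay within the negative control range at both ages. Of 6 tested 1 was higher (Gzmb, granzyme B, at 5.74 ± 0.15 in aged and 5.20 ± 0.11 in young cells). The young mean of Gzmb was below the filter, and it entered the test through its aged values. Among all tested genes 18.4% were higher.

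Ctso encodes cathepsin O, a cysteine protease less well described than the others. It read 7.52, 7.50 and 7.60 on the aged arrays, against 6.68, 6.68 and 6.55 on the young arrays. The groups were far apart, by 0.91 with an interval of 0.78 to 1.03 (limma, adjusted p = 3.14e-06). Both means, 7.54 and 6.64, lay within the negative control range, so the size of this difference as a ratio of RNA is not known.

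A further 12 genes carry cathepsin names, among them cathepsins of immune cells and a cluster expressed in the placenta of rodents. All 12 lay within the negative control range at both ages, and only 2 were bright enough to be tested. Ctsf, of a ubiquitous cysteine cathepsin, was higher, at 7.25 ± 0.03 in aged and 7.12 ± 0.03 in young cells (limma, adjusted p = 0.0403). Its call was lost without young replicate 2, without any 1 of the aged arrays, with the replicate number as a block, after quantile normalization, with no filter and against 0.3. Ctsw, known from natural killer and cytotoxic T cells, was lower, at 6.24 ± 0.10 in aged and 6.55 ± 0.07 in young cells (SD, n = 3 each; limma, adjusted p = 0.0053).

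Genes listed as cathepsin inhibitors or their relatives, not all of which are known mainly for cathepsins, were higher in aged cells more often than not. The list held cystatins and relatives, the mouse Ctla2 genes and serpins. Of 12 tested 8 were higher and 0 lower, where 18.4% of all tested genes were higher and 22.1% lower. The median difference of the list was 0.98, beside 0.01 for all tested genes. Cst3 encodes cystatin C, the main secreted inhibitor of cysteine cathepsins. It averaged 12.10 ± 0.05 in aged and 10.48 ± 0.06 in young cells (SD, n = 3 each), 3.07-fold higher (limma, adjusted p = 1.25e-08). Ctla2a and Ctla2b, which resemble a cathepsin propeptide, averaged 10.26 ± 0.03 and 8.56 ± 0.10 in aged cells, against 6.14 ± 0.18 and 6.25 ± 0.07 in young cells. They are close paralogs, so their probe sets may each read both. Kng1, whose product kininogen carries cystatin domains and which has a close mouse paralog, read 4.99 ± 0.02 in young cells, below the filter of the test and near the negative control median of 4.79. It entered the test through its aged values, which lay above the negative control range, so no size is given for it.

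Of the 8 higher inhibitor genes 5 had young means within the negative control range (Ctla2a, Ctla2b, Kng1, Fetub and Serpinb1a), so folds were not computed for them and the list's median rests in part on differences from background. Not every inhibitor moved: Cstb, the gene of the cytosolic inhibitor stefin B, read 11.49 ± 0.03 in aged and 11.47 ± 0.04 in young cells (limma, adjusted p = 0.69). The other 4 that rose, named after their values were seen, were Fetub, Serpinb1a, Serpinb6a and Serpinb9. Serpinb6a and Serpinb9, measured above that range at both ages, differed by 0.15 and 0.98. The serpins among the 4 are better known as inhibitors of serine proteases.

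**Figure D3:**
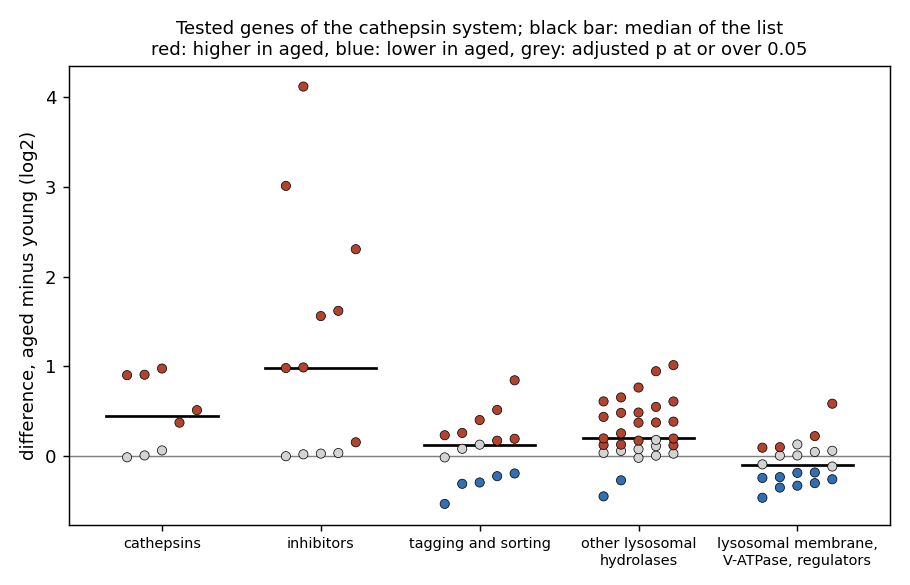
Difference in log2 expression, aged minus young (y axis), of every tested gene in 5 lists (x axis), with a bar at each list's median. The inhibitor genes have the highest median, 0.98, and the lysosomal membrane, proton pump and regulator genes are the list with a median below 0, at -0.11.

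Of 15 tested genes that tag, sort and activate lysosomal enzymes, 7 were higher and 5 lower, with a median difference of 0.13 and against the same shares of all tested genes as above. Lgmn encodes legumain, the protease that cuts single-chain cathepsins into their 2-chain forms, and averaged 10.69 ± 0.02 in aged and 9.84 ± 0.08 in young cells (SD, n = 3 each), or 1.79-fold higher (limma, adjusted p = 8.87e-07). Igf2r, the larger mannose 6-phosphate receptor, was lower, with a difference of -0.54 (limma, adjusted p = 1.17e-05). M6pr, the smaller receptor, read 10.37 in aged and 10.39 in young cells and did not pass (limma, adjusted p = 0.78). Scarb2, a lysosomal membrane protein that carries glucocerebrosidase, was 1.32-fold higher, and the sorting receptor gene Sorl1 read 6.54 in aged and 6.03 in young cells, within the negative control range.

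Of 30 tested genes of other lysosomal hydrolases and their activators, 20 were higher and 2 lower, with a median difference of 0.19. Among all tested genes 18.4% were higher and 22.1% lower. Pla2g15, a phospholipase, was 2.02-fold higher. Galns and Arsb, sulfatases that break down glycosaminoglycans, were 1.92-fold and 1.70-fold higher, and Fuca1, a fucosidase, was 1.52-fold higher. Galc and Neu1 were the 2 lower genes, picked for naming with their values known. Neu1 encodes the sialidase that cathepsin A protects, and averaged 8.61 ± 0.02 in aged and 8.88 ± 0.10 in young cells (SD, n = 3 each).

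The list of lysosomal membrane proteins, proton pump subunits and regulators had 4 genes higher and 9 lower among 20 tested, where 18.4% of all tested genes were higher and 22.1% lower. The higher count was 2 with the replicate number as a block, with no trend, and without aged replicate 1 or 2. Atp6v1h, Atp6v1a and Atp6v1b2, of the pump that acidifies lysosomes, had log2 differences of -0.47, -0.33 and -0.24, and Npc1, a cholesterol exporter of the lysosome, had one of -0.30. All 4 passed the test. The other listed pump genes, named after their values were seen, did not all go the same way. Atp6v0d1 and Atp6ap2 were lower, Atp6v0a1 was higher by 0.22, and Atp6ap1 did not pass. Among the factors that read the E-box, Tfeb (7.54 ± 0.03 in aged and 7.41 ± 0.08 in young cells) and Tfe3 (8.05 ± 0.02 in aged and 8.14 ± 0.06 in young cells) did not pass (limma, adjusted p = 0.0763 and 0.12). Mitf, chosen for naming after its value was seen, read 8.03 ± 0.03 in aged and 7.45 ± 0.16 in young cells (limma, adjusted p = 0.00025). Both means of Tfeb and the young mean of Mitf lay within the negative control range. For these genes the size as a ratio of RNA is therefore not known.

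Of 13 tested genes of matrix proteins that cathepsins are known to cut, 6 were higher and 2 lower, with a median difference of 0.10, where 18.4% of all tested genes were higher and 22.1% lower. Col1a1 and Col1a2, the chains of type I collagen and the classic substrate of cathepsin K, were 1.73-fold and 1.48-fold higher. The basement membrane gene Nid1 was 1.55-fold higher, and the laminin gene Lamb1 fell by 0.58.

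By the distance between centred values over the 6 arrays (root mean square, log2 units), the tested genes closest to Ctsk were Galns at 0.028, Mvk at 0.030 and Pla2g15 at 0.031. The closest to Ctsh were Npy1r, Lmo7 and Il13ra1, at 0.027 to 0.031, and those closest to Ctso were Baiap2, Tgfb3 and Hspb6, at 0.018 to 0.025. Ctsz lay nearest to Csrp1, Cd99 and Lix1l, at 0.011 to 0.013, and Ctsb nearest to Ndufa3, Cyb5r3 and Scd1, at 0.014 to 0.017. As the arrays fall into 2 groups, genes with a like difference between the ages lie close by construction.

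Cathepsins are abundant in macrophages and osteoclasts, so markers of those cells were read beside them. All 18 macrophage and monocyte markers lay within the negative control range at both ages. Among them Adgre1 read 4.58 in aged and 4.52 in young cells, Csf1r 5.84 in aged and 5.77 in young cells, and Cd68 7.17 in aged and 7.29 in young cells. Of 11 tested 2 were higher (Cd14 at 7.07 in aged and 6.72 in young cells, Fcer1g at 5.71 in aged and 5.41 in young cells). Among all tested genes 18.4% were higher. The summed linear values of the 18 ran from 1066 to 1088 on aged and 1003 to 1041 on young arrays, which did not overlap. Mpeg1, which was too dim to be tested and is named after its values were seen, read 5.68 ± 0.14 in aged and 4.69 ± 0.14 in young cells. In the fit with no filter its difference of 0.99 passed (limma, adjusted p = 7.98e-05), and 3 macrophage markers were then higher.

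Of 10 osteoclast markers other than Ctsk, 9 lay within the negative control range at both ages. Acp5, the tartrate-resistant phosphatase that defines osteoclasts, read 7.42 ± 0.03 in aged and 7.32 ± 0.16 in young cells and did not pass (limma, adjusted p = 0.36), Calcr read 5.12 at both ages, and Nfatc1, also used outside osteoclasts, was 1.16-fold higher. Summed, the 10 ran from 1083 to 1107 on aged and 999.8 to 1018 on young arrays. That sum includes Nfatc1, the brightest of the 10, at 8.64 in aged and 8.42 in young cells. Nfatc1 weighs most in the linear sum, and a sum without it was not computed. Of 11 other leukocyte markers, all within the negative control range, 2 of 4 tested were higher (Ly6g and Nkg7), beside 18.4% of all tested genes. The sums of the 11 ran from 497.8 to 503.7 on aged and 400.04 to 465.6 on young arrays. What part such cells had in the cathepsin differences was not tested. In bulk RNA, fewer cells of a type and less RNA per cell cannot be told apart.

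**Figure D4:**
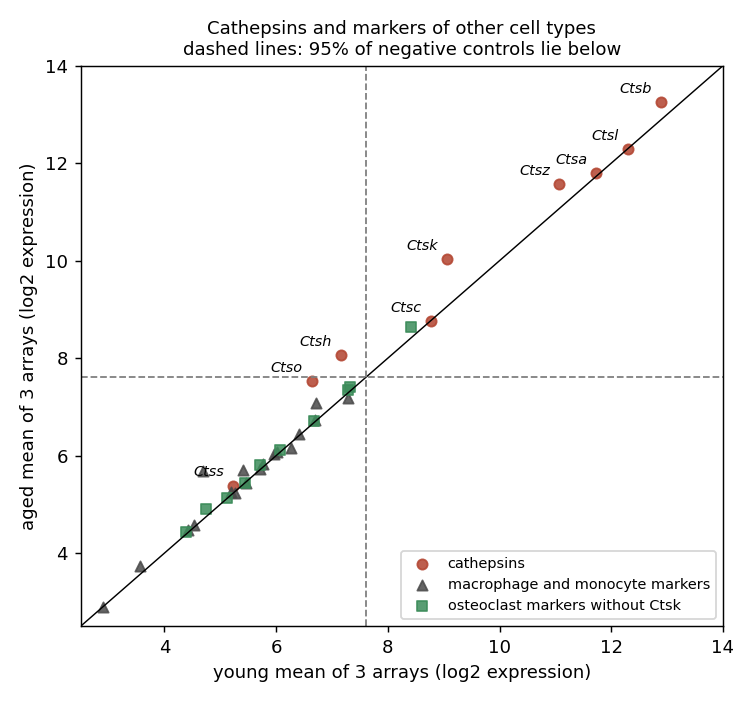
Mean log2 expression in aged cells (y axis) against young cells (x axis) of the cathepsins and of macrophage and osteoclast markers, each point a gene and the solid line equality. All macrophage markers and all osteoclast markers except Nfatc1 lie below 7.61 on both axes, and 7 of the 9 cathepsins lie above it in aged cells.

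Stromal markers were bright in part. Of 11 measured stromal markers 7 lay above the negative control range in aged cells, among them Col1a1, Col3a1, Pdgfrb, Itgb1 (CD29) and Vcam1, while Thy1, Eng, Nt5e and Lepr lay within it. Of 10 tested 6 were higher and 2 lower in aged cells, where 18.4% of all tested genes were higher and 22.1% lower. The 4 with the smallest p, Cxcl12, Col3a1, Col1a1 and Prrx1, were higher, by 2.25, 1.85, 0.79 and 0.85. The young mean of Cxcl12, 7.63, lay only just above the negative control range. The excluded markers Ptprc (CD45, at 3.62 in aged and 3.65 in young cells) and Itgam (CD11b, at 5.24 in aged and 5.26 in young cells) lay within the negative control range. Pearson's r across tested genes was 0.995 to 0.999 between arrays of an age and 0.976 to 0.978 between ages (genes are not independent replicates). The spread was wider in young arrays, with a median SD of 0.04 in aged and 0.07 in young arrays. Of the 9 cathepsin genes 8 also had the wider spread in young arrays. Across all tested genes the groups did not overlap in 51.3%, and in 24.4% with the aged arrays higher, while 5 of the 8 tested cathepsins had aged arrays all higher. No label gives a culture or hybridisation batch, and an effect of batch cannot be told apart from age.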

How the data were processed

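Each of 6 Affymetrix arrays, 3 from aged and 3 from young mice, was read as the authors' deposited log2 expression values, 1 per probe set. Per the submitters' processing notes MAS5 was used, with no version, while the background correction, scaling and summarisation are not stated there. No further scaling was applied, and the table carries no detection calls. The number of arrays limits the precision.

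Of 65956 transcript clusters 31266 had a single listed gene after symbols were updated through the RefSeq table of GRCm38.p6, 31264 of them found in that table; 1484 had several and stayed unnamed, and 33206 had none listed. Each gene was represented by its brightest probe set over all arrays. The test covered the 20194 genes whose mean reached the transcript cluster median of 5.40. It was limma 3.58.1 (R 4.3.3), aged against young with the trend option, and Benjamini-Hochberg adjustment ran over all of them. Differences are aged minus young. A fold is given where both means exceed 7.61, the 95th percentile of 5222 negative control probe sets; their median is 4.79. With 3 arrays a group, exact permutation of 1 gene reaches p = 0.1 at best, and calls rest on limma. Figures were drawn with matplotlib 3.10.9.

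The cathepsin genes and the lists (other cathepsins, inhibitors, tagging and sorting, hydrolases, membrane and regulators, matrix substrates, class II, granule proteases, and stromal, macrophage, osteoclast and leukocyte markers) were chosen with earlier results of these data known. All cathepsins are named, and from each list up to 4 passing genes with the smallest p and up to 2 needed as markers. More markers than that are named from the macrophage and stromal lists. Other genes are said to be named after their values were seen. Lists are described by counts and medians, without a list test. On simulated arrays of 20194 genes, with 50 genes altered at each log2 size, the test found 23 at 0.25, 45 at 0.5, 49 at 1 and 50 at 2, and called 13 unaltered genes. All other genes were left unaltered there, while in the data 40.6% of tested genes were called. Both ages also had the same spread per gene in the simulation, so its counts need not hold for the data. Alternatives were 2 scalings, 2 filters, averaging of probe sets, 2 variance models, a test against 0.3, the replicate number as a block and each array left out.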

Additional observations from a re-analysis of the deposited data

How the results depend on the processing

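The 5 cathepsin differences that passed (Ctsb, Ctsh, Ctsk, Ctso and Ctsz) kept their direction and their side of the threshold under every alternative, except that Ctsb, at 0.37, did not pass when tested against 0.3. Ctsa passed after quantile normalization, at 0.13, and without young replicate 1, at 0.093, and ranged from 0.045 to 0.093 with each array left out; the cause was not tested. Over all alternatives Ctsk ranged from 0.91 to 1.04, Ctso from 0.86 to 0.93, Ctsh from 0.86 to 0.93, Ctsz from 0.49 to 0.57 and Ctsb from 0.35 to 0.40. Against 0.3 the calls over all genes were 1169 higher and 816 lower, beside 3724 and 4472; a stricter bound leaves fewer by construction. That bound left 3 higher and 1 lower among tagging and sorting genes, 9 and 0 among hydrolases, 1 and 1 among membrane and regulator genes, 3 and 1 among matrix substrates, 1 and 0 among leukocyte markers, 0 lower among stromal markers, and 0 among other cathepsins, class II genes, granule proteases and macrophage and osteoclast markers. Among inhibitor genes 7 were higher. Other counts that moved by over 1.5 times were of 0 to 4 genes and changed by 1 or 2. Without young replicate 3, 2 granule proteases and 2 osteoclast markers were higher and 1 macrophage marker lower; without aged replicate 1 or 2, 2 membrane and regulator genes were higher; and leukocyte markers higher and stromal markers lower ranged from 1 to 2 with each array left out. With the replicate number as a block 5 cathepsins were higher and 0 lower, and 3526 genes were higher and 4208 lower. Same-numbered arrays deviated with correlations of -0.05, 0.07 and 0.02, and only the arrays numbered 2 correlated more with each other than with other numbers, so the numbers were not taken as pairs.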
